A study of Homo sapiens
Mus musculus and Homo sapiens with 21 samples.

Results

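The comparison described here sets human lung adenocarcinoma cells growing as brain metastases against the same cells growing as tumours under the skin. It takes 10 of the 21 samples of the series: 6 libraries of metastasis-bearing brain, 3 from the forebrain and 3 from the hindbrain, and 4 libraries of subcutaneous tumour. The samples were chosen by their titles, and only the table of human genes was used. All 10 came from athymic nu/nu mice, which lack a thymus and mature T cells, and all carried H2030-BrM3, a brain-seeking derivative of the H2030 lung adenocarcinoma line, so 1 cell line stands for the disease. The mice were 5 to 6 weeks old at injection. For brain metastases the cells were injected into the heart in buffer, and for subcutaneous tumours they were injected under the skin with 50% growth factor-reduced Matrigel, a basement membrane extract. No drug and no allele other than nu is named for any group. Tumours were cut out with the stroma around them and flash frozen, and reads were then assigned to human (tumour) or mouse (host) genes. The labels do not say whether libraries came from separate animals, or whether a forebrain and a hindbrain library of the same number shared one, so p-values measure the spread between these libraries, which may in part be technical. The route of injection, the Matrigel and the site of growth differ together and cannot be told apart. The series describes its purpose as a comparison of lung adenocarcinoma transcriptomes across places of growth. Its 3 monolayer culture libraries of the same line entered the filter on low values and the estimate of the spread, and are not described.

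Lung adenocarcinoma is a gland-forming cancer that often spreads to the brain, where cells leave capillaries, stay close to vessel walls and grow among astrocytes, microglia and neurons. Brain tissue is soft, rich in lipid and poor in fibrillar collagen, while the tissue under the skin is collagen-rich. Cells read such differences through integrins and the actin cytoskeleton, which act on the transcription co-activators YAP and TAZ and their DNA-binding partners of the TEAD family, and through secreted signals of the Wnt, BMP and TGF-beta families.

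Human genes took 3579907 to 6897852 reads in the metastasis libraries, 4.83 to 7.52% of each library's reads, and 27253282 to 48152857 reads in the subcutaneous tumours, 87.8 to 95.2% of reads. Levels are RPKM (reads per kilobase of transcript and 1000000 reads) rescaled so that the human genes of each library sum to 1000000. Across the 14557 human genes tested, the log2 levels of the 4 subcutaneous tumours correlated pairwise at 0.992 to 0.996, those of the 6 metastases at 0.977 to 0.986, and a metastasis with a subcutaneous tumour at 0.958 to 0.972. The first principal component held 50.35% of the variance and separated all 6 metastases from all 4 subcutaneous tumours, and hindbrain metastasis replicate 3 and forebrain metastasis replicate 2 lay farthest apart on the second. Tumour-free brain gave 3325 to 5753 reads on human genes. At those rates mouse RNA accounts for 0.307% of all human reads in the metastases, but for 10% or more in 222 of the genes tested, which are kept out of the largest changes below. In tissue RNA, fewer cells of a type and less RNA per cell cannot be told apart.

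A gene is called where its difference had an adjusted p under 0.05 in limma, a linear model test across all genes. Of 14557 genes, 7276 were called (50%), 4537 of them higher in the metastases (31.2%) and 2739 lower (18.8%), and the median change over all genes was 0.05 on the log2 scale. Changes of at least 2-fold were fewer: 362 genes were higher (2.49%) and 303 lower (2.08%). For 4573 genes (31.4%) the call came with no overlap between the 6 metastases and the 4 subcutaneous tumours. The balance of directions depended on the scaling, with 3549 genes higher and 3614 lower under median-of-ratios scaling, 3478 and 3749 when libraries were scaled to nuclear genes, and 3655 and 3524 after quantile normalization. Among genes whose higher group averaged 5 or more, protein-coding genes were called higher 3982 times (40.65%) and lower 1779 times (18.16%) of 9796. Long non-coding RNA genes at that level were called higher 60 times and lower 122 times of 349. List counts below are to be read against these shares.

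**Figure D1:**
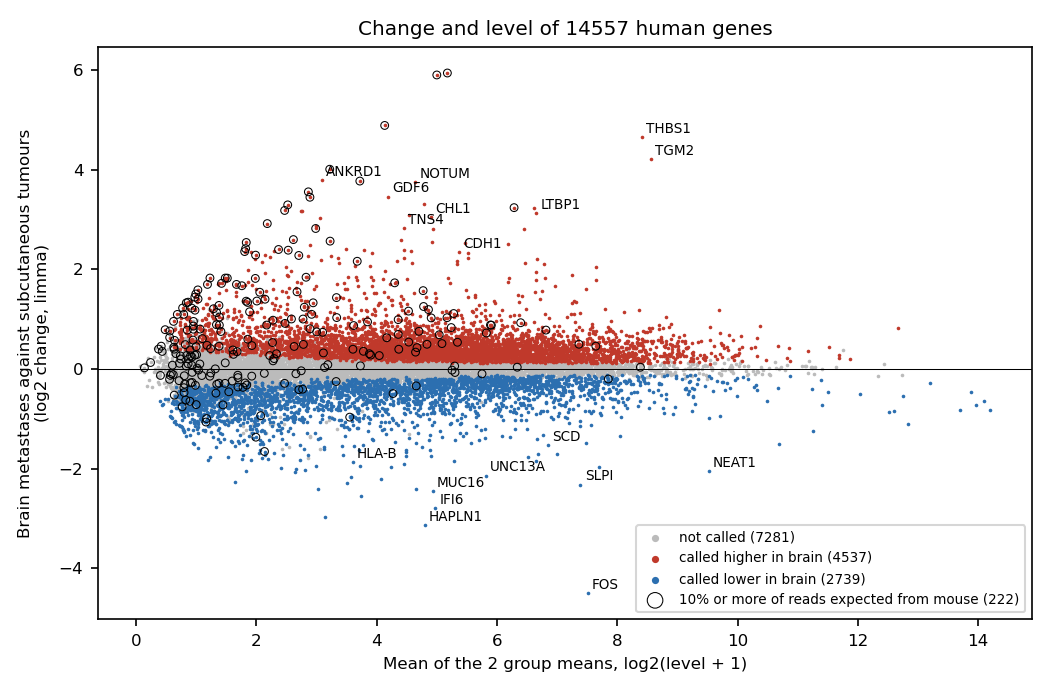
Log2 change between brain metastases (n = 6) and subcutaneous tumours (n = 4) for each of the 14557 human genes tested, against the mean level of both groups on the log2(level + 1) scale. Red points were called higher in brain (4537 genes), blue points lower (2739), and black circles mark the 222 genes for which mouse RNA accounts for at least 10% of metastasis reads. THBS1 and TGM2 stand at the top among abundant genes and FOS at the bottom.

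In this text a gene's levels are given as the lowest, median and highest of the 6 metastases, against subcutaneous replicates 1 to 4 in that order, and a change is a log2 difference of log2(level + 1) ± its standard error (SE). THBS1 (ENSG00000137801.10, chromosome 15, 39581079 to 39599466, plus strand of GRCh38) encodes thrombospondin-1, a secreted protein of the matrix, and stood at 465, 645 and 839 against 29.4, 27.8, 24.1 and 18.4, and TGM2, the gene of an enzyme that crosslinks matrix proteins, at 543, 718 and 877 against 32.5, 42.5, 37.9 and 35.5. The lowest metastasis exceeded the highest subcutaneous tumour more than 10-fold for both. Their changes were 4.66 ± 0.12 (SE; adjusted p = 3.67e-12) and 4.22 ± 0.11 (SE; adjusted p = 6.23e-12). LTBP1 (ENSG00000049323.15, chromosome 2, 32946953 to 33399509, plus strand of GRCh38), whose protein tethers latent TGF-beta to the matrix, was at 134, 163 and 244 against 16.3, 20.01, 20.6 and 19.3, a change of 3.13 ± 0.08 (SE; adjusted p = 4.43e-12). MYO10 encodes an unconventional myosin of filopodia and was at 27.9, 46.3 and 72.7 against 4.16, 4.09, 3.34 and 3.55. ANTXR1, the gene of a collagen-binding surface receptor, was at 135, 169 and 223 against 15.1, 21.7, 18.1 and 15.4. For LTBP1, MYO10 and ANTXR1 too the groups were far apart, and the 3 forebrain metastases were the 3 highest libraries for LTBP1 and MYO10. TNS4 encodes a tensin that links integrin tails to other proteins at the membrane, and it stood at 30.5, 37.7 and 44.2 against 3.81, 4.46, 5.08 and 4.09. CHL1, the gene of a neural adhesion molecule related to L1CAM, was at 42.5, 46.7 and 80.5 against 4.85, 4.88, 6.93 and 4.87, with 0.226% of its metastasis reads expected from mouse RNA. SH3GL3, the gene of an endophilin, was at 6.15, 12.1 and 23 against 0.622, 0.988, 0.698 and 0.609, and SERTAD4 at 6.91, 11.1 and 16.6 against 0.265, 0.305, 0.222 and 0.338. Every metastasis lay above every subcutaneous tumour for each of the 15 genes with the largest rises, as the rule for naming them required. Genes named from the lists below for their change passed the same rule, so their lack of overlap is no separate result.

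The largest falls mixed early response, matrix, secretory and nuclear RNA genes. FOS is described with the other immediate early genes and IFI6 with the interferon-stimulated genes. HAPLN1, whose protein links hyaluronan to proteoglycans, was at 2.81, 4.11 and 8.55 against 63.1, 35.4, 35.3 and 61.3, a change of -3.13 ± 0.26 (SE; adjusted p = 6.47e-07). UNC13A, a gene of synaptic vesicle priming, was at 15.6, 21.3 and 22.4 against 85.6, 81.1, 97.3 and 97.7. These groups were separated by a wide margin, and the subcutaneous tumours varied less for UNC13A than for HAPLN1. NEAT1, the long non-coding RNA that scaffolds nuclear paraspeckles, was at 218, 277 and 414 against 934, 1417, 1086 and 1297, a change of -2.06 ± 0.14 (SE; adjusted p = 9.48e-08). SFRP4, a secreted Wnt antagonist gene, was at 2.19, 4.58 and 10.2 against 28.4, 25.8, 18.7 and 32.3. The 15 largest falls also held 2 small RNA genes, MIR7111 at 0, 1.56 and 7.52 against 7.97, 11.1, 18.6 and 9.88 and SNORD101 at 0, 2.92 and 3.52 against 6.62, 12.4, 14.3 and 6.72. Reads of such short genes can be shared with a host gene, so these values are uncertain.

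**Figure D2:**
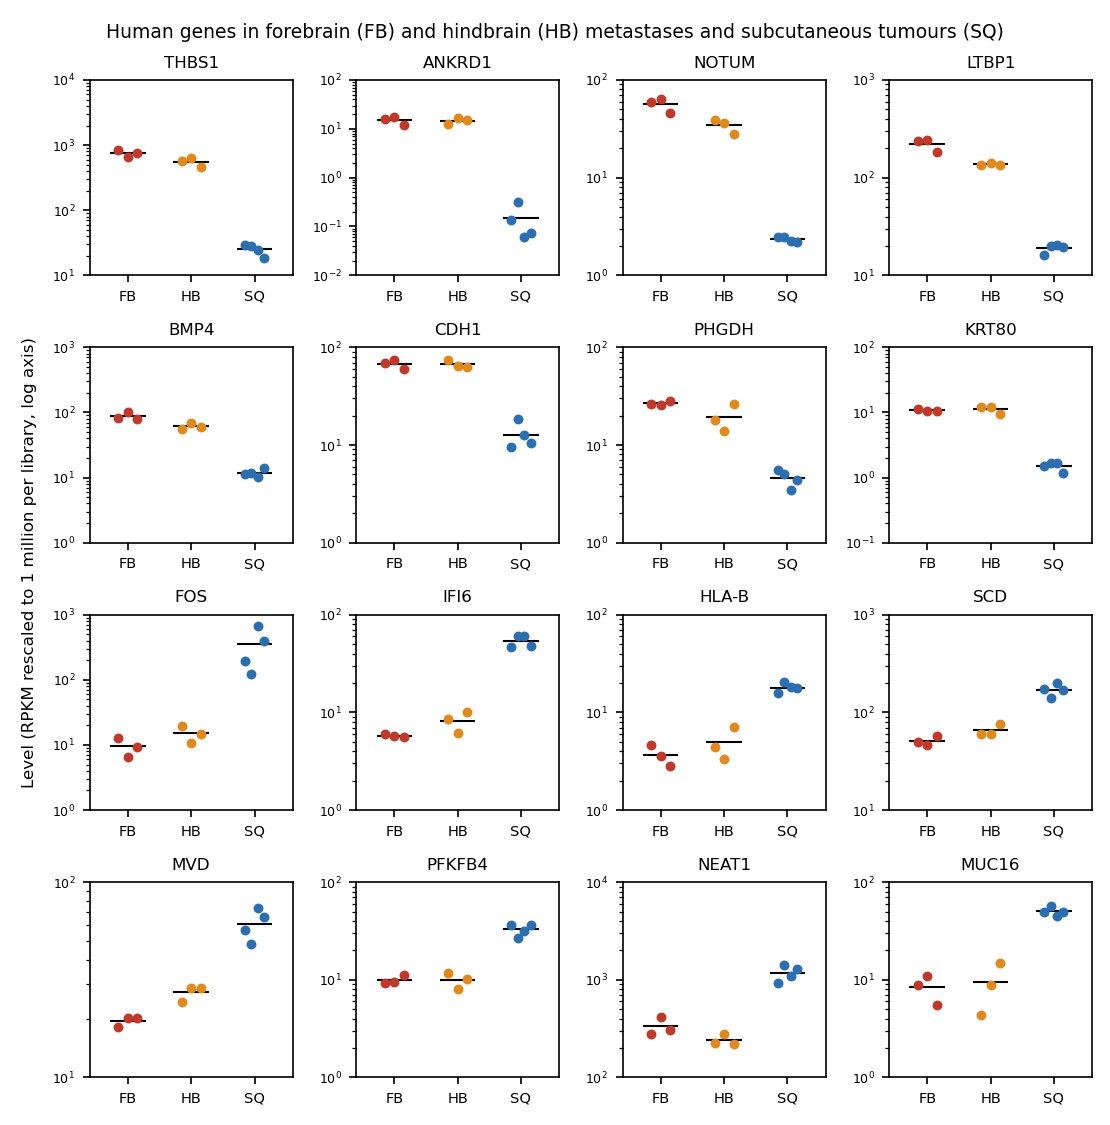
Levels of 16 human genes in each library (RPKM rescaled to 1000000 per library, log axis whose range differs by panel), with forebrain metastases in red, hindbrain metastases in orange and subcutaneous tumours in blue, and black bars at group means. In the top 8 panels all 6 metastases lie above all 4 subcutaneous tumours, and in the bottom 8 all lie below.

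Targets of YAP and TEAD were mostly called higher in the brain, with 20 of 28 tested called higher, 1 lower and a median change of 0.40, against 31.2% and 18.8% of all genes. ANKRD1 (ENSG00000148677.6, chromosome 10, 90912096 to 90921087, minus strand of GRCh38), a nuclear ankyrin repeat gene used as a readout of this pathway, stood at 12.2, 15.4 and 17.2 against 0.137, 0.316, 0.0597 and 0.0744. Its subcutaneous levels were all below 0.5, so its change of 3.79 ± 0.11 (SE; adjusted p = 1.13e-11) rests on few transcripts there and understates the ratio of the raw levels. Besides THBS1, the list held IGFBP3, the gene of an insulin-like growth factor carrier, at 73.9, 108 and 151 against 30.3, 32.8, 30.7 and 33.2. NT5E encodes the adenosine-making surface enzyme CD73 and was at 113, 159.97 and 197 against 52.8, 42.1, 41.9 and 37.4. CTGF (CCN2), a classical YAP target gene, was at 187, 222 and 255 against 97.4, 94.2, 98.3 and 59.5. None of these 3 overlapped between groups, and subcutaneous replicate 4 was the lowest library of CTGF and of NT5E. DOCK5, a Rac activator gene, was the 1 member called lower, at 162, 171 and 185 against 234, 297, 241 and 246. The ANKRD1 promoter is printed because it carries the TEAD core letters GGAATG 2 times; capitals mark them, in 128 bases of chr10:90921195-90921322 on hg38, minus strand, read 5′ to 3′.

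ANKRD1 promoter: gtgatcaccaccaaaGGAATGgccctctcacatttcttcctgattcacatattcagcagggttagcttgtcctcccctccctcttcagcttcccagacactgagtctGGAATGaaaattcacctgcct

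GGAATG, on either strand between 350 bases before and 50 bases after the start of the transcript, was found in 16 of the 28 tested YAP target promoters and in 14.09% of 11835 protein-coding promoters. Of the 16, 12 were called higher, THBS1, AXL and CTGF among them, and 4 were not called (FOXF2, CYR61, LATS2 and YAP1). A match describes the letters and does not show binding.

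Actin and focal adhesion genes were called higher 12 times and lower 5 times of 22. TPM1 (tropomyosin, an actin filament stabilizer) was at 126, 150.4 and 182 against 59.3, 53.6, 59.8 and 52.3, a change of 1.41 ± 0.06 (SE; adjusted p = 5.53e-10). MYH9, the gene of the non-muscle myosin IIA heavy chain, was at 1077, 1338 and 1528 against 813, 840.4, 805 and 813, and ACTN1, which crosslinks actin at adhesions, at 486, 506 and 527 against 353, 328, 334 and 318. All 3 were higher in each metastasis than in each subcutaneous tumour. The adhesion scaffold genes ZYX and FHL2 went the other way, with changes of -0.43 and -0.36. The CArG box, the letters bound by serum response factor, stood in 10 of these 22 promoters and in 1.538% of all. Of the 10 genes with the box 4 were called higher, FLNA, CALD1 and VCL among them, 3 lower, with TAGLN and FHL2 among them, and 3 were not called.

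Wnt feedback and receptor genes were called higher in 12 of 20 and lower in 2, with a median change of 0.64. NOTUM (ENSG00000185269.11, chromosome 17, 81952507 to 81961840, minus strand of GRCh38), a secreted enzyme gene that removes the lipid Wnt proteins need, was at 27.8, 42.5 and 64 against 2.46, 2.47, 2.22 and 2.17, a change of 3.75 ± 0.10 (SE; adjusted p = 8.2e-12). AXIN2, a scaffold of the complex that destroys beta-catenin, was at 21.8, 37.8 and 66.9 against 3.04, 4.04, 3.54 and 3.42, and NKD1, another intracellular Wnt antagonist gene, at 5.79, 17 and 24.6 against 3.96, 3.21, 4.02 and 3.61. Each of these 3 feedback genes was separated between groups, NOTUM and AXIN2 widely and NKD1 by a narrow gap. The secreted antagonists moved apart: SFRP1 was at 8.54, 10.5 and 12 against 1.63, 2.57, 2.23 and 1.93 while SFRP4 was lower. WNT5A, a ligand of the beta-catenin-independent branch, was lower, at 2.72, 5.18 and 7.35 against 7.54, 9.34, 8.21 and 8.61.

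BMP ligands, inhibitors and ID targets were called higher in 11 of 18 and lower in 2, with a median change of 0.49. Among ligands, GDF6 was at 17.3, 35.3 and 45 against 1.69, 2.18, 1.57 and 1.98, BMP4 at 56.5, 74.1 and 101 against 11.3, 11.9, 10.2 and 14.1 and BMP7 at 212, 309.6 and 376 against 125, 117, 166 and 124. All 3 ligand genes were higher in every metastasis, with changes of 3.46 ± 0.13 (SE; adjusted p = 1.9e-10) for GDF6 and 2.53 ± 0.09 (SE; adjusted p = 1.47e-10) for BMP4. Of the ID genes, which BMP signalling induces, ID2 was at 12.2, 14.8 and 22.4 against 2.65, 2.49, 2.5 and 2.59 and ID3 at 111, 149.7 and 185 against 216, 189, 252 and 202, so ID2 was higher and ID3 lower. FSTL3, a secreted inhibitor of activin-like ligands, was lower, with a change of -0.49.

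TGF-beta ligands, carriers and targets were mixed (6 higher and 4 lower of 15, median 0.19). Beside LTBP1, the type II receptor gene TGFBR2 was at 19.8, 25.3 and 27.8 against 15.8, 15.9, 16.5 and 14.3 and the target TGFBI, a matrix adaptor gene, at 69.2, 112 and 139.5 against 42, 57.8, 56.7 and 47. LTBP3, a paralog of LTBP1, was lower, at 2.67, 4.41 and 4.91 against 6.56, 7.96, 6.18 and 7.25. In the Notch pathway 3 genes were called higher and 5 lower of 13. The ligand gene JAG1 was at 21.2, 30.5 and 38.8 against 6.71, 7.64, 9.24 and 8.6 and its paralog JAG2 at 10.9, 16.8 and 21 against 25.9, 24, 23.6 and 25.5, so the paralogs moved in opposite directions. The Notch-responsive repressor gene HES4 was lower, with a change of -0.81. Without subcutaneous replicate 4, 3 Notch genes were called lower.

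The label of a lung adenocarcinoma line was checked on defining markers. The simple epithelial keratin genes KRT8 and KRT18 were abundant in all 10 libraries, at 975, 1131 and 1419 against 486, 463, 566 and 502 and at 527, 598 and 724 against 277, 269, 328 and 290.1, and both were higher in brain. EPCAM, an epithelial surface glycoprotein gene, was at 16.7, 25 and 41.5 against 50.8, 44.9, 50.7 and 44.4. Of the alveolar lineage genes, NKX2-1 and SFTPC were too low to be tested and NAPSA stood at 0.254, 0.628 and 1.04 against 1.18, 1.28, 1.61 and 2.32, so the defining alveolar markers were near 0 in both groups. Of 8 lung lineage genes tested, 1 (NAPSA) was called lower and 0 higher.

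Epithelial junction genes were called higher in 6 and lower in 5 of 23, shares close to those of all genes, and with nuclear scaling 5 were higher and 6 lower. Single members moved far, however. CDH1, the gene of E-cadherin, was at 60.1, 66.8 and 74.4 against 9.61, 18.3, 12.6 and 10.4, a change of 2.36 ± 0.14 (SE; adjusted p = 1.23e-08). TJP1, the gene of the tight junction scaffold ZO-1, was at 44.1, 52.5 and 58.4 against 25.7, 23, 25.8 and 23.4, and CLDN4, a claudin gene, at 5.08, 6.4 and 8.72 against 2.16, 1.99, 3.18 and 2.55. KRT80, the gene of a keratin found near desmosomes, was at 9.53, 11 and 12.3 against 1.49, 1.65, 1.68 and 1.16. For CDH1, TJP1, CLDN4 and KRT80 no metastasis overlapped a subcutaneous tumour. LLGL2, a polarity gene, was lower, at 19.2, 24.7 and 26.9 against 40.2, 43.6, 42.9 and 49.4. Mesenchymal genes were called higher in 10 and lower in 4 of 17. ZEB1, a repressor of CDH1 in many cells, was at 14.5, 16.8 and 19.7 against 9.23, 9.09, 8.86 and 8.21, and AXL, a receptor tyrosine kinase gene, at 65.3, 71.5 and 84.3 against 49, 50.4, 42.5 and 43.7. ZEB1 and CDH1 thus were both higher in the brain. CDH11, the gene of a mesenchymal cadherin, was lower, at 343, 522 and 643 against 936, 1103, 946 and 890.3.

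Genes of the basement membrane were mostly called lower: of 12 laminin and basement membrane genes 7 were called lower and 1 higher (median -0.56). LAMB3, a chain of the epithelial laminin-332, was at 7.46, 9.95 and 12.4 against 23, 23.4, 20.8 and 19.8, a change of -1.07 ± 0.12 (SE; adjusted p = 5.94e-06). LAMB2 was at 259.5, 306 and 401 against 532, 490.1, 555 and 601, and the proteoglycan genes AGRN and HSPG2 (perlecan) were lower with changes of -0.76 and -0.71. For LAMB3 and LAMB2 every metastasis lay below every subcutaneous tumour.

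Collagen and crosslinking enzyme genes were called lower 13 times and higher 6 times of 26. With the replicate number as a block, 8 were lower and 6 higher. COL6A1 and COL6A2, chains of the microfibrillar collagen VI, were at 7.51, 16.7 and 19.8 against 31.2, 27.8, 32.2 and 33 and at 9.98, 15.4 and 19.6 against 40.5, 38.4, 43.2 and 43.2. COL1A1, a fibrillar collagen chain gene, was at 77.1, 93.7 and 122 against 160.2, 186, 184 and 203, with 0.414% of its metastasis reads expected from mouse RNA. These collagens fell in the human table without overlap. The mouse share was estimated for the metastases only, from tumour-free brain. The part of mouse RNA in the subcutaneous levels of these collagens was not tested. Matricellular genes, whose proteins act as signals in the matrix rather than as its scaffold, went up more often (8 of 14, 3 lower, median 0.52). POSTN, the gene of periostin, was at 2.97, 10.2 and 25.4 against 0.0489, 0.0337, 0.0636 and 0.00793; its subcutaneous level was near 0, so no fold is given. EFEMP1, a fibulin gene, was at 11.8, 16.8 and 22.8 against 3.85, 4.14, 3.53 and 4.27, while THBS3 and MATN2 were lower with changes of -0.76 and -1.07.

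Hyaluronan and proteoglycan genes moved both ways (8 higher and 10 lower of 23; among genes at a mean of at least 5, 8 and 6). CEMIP, needed for hyaluronan breakdown, was at 18.3, 20.8 and 29.8 against 2.94, 2.35, 5.59 and 3.04, and HAS2, which makes hyaluronan, at 20.3, 22 and 29.5 against 11.4, 8.61, 10.5 and 10.6. SDC2, the gene of the heparan sulfate proteoglycan syndecan-2, was at 30.4, 56 and 61 against 6.61, 6.75, 9.43 and 8.2, a change of 2.54 ± 0.18 (SE; adjusted p = 7.32e-08). Synthesis, breakdown and a surface proteoglycan gene were thus higher together while the link protein gene HAPLN1 was lower. Integrins were split, with 5 higher and 5 lower of 13. ITGAV, ITGB1 and ITGB5, chains of receptors for vitronectin, fibronectin and other ligands, were higher by 0.52, 0.45 and 0.33 on the log2 scale. ITGA3, the chain that binds laminin-332, was at 430.2, 475 and 530.0 against 646, 639, 736 and 686 and was lower.

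Among plasmin system genes (2 higher, 5 lower of 14), PLAU, the gene of the plasminogen activator urokinase, was at 7.71, 14.5 and 17.5 against 0.725, 0.696, 0.787 and 0.85, and PLAUR, its receptor gene, at 75.1, 109 and 146 against 223, 201, 242 and 221. The enzyme was higher and the receptor lower in every metastasis. Cathepsin and cystatin genes were mostly lower (7 of 11, 1 higher); the exception, CTSB, a lysosomal cysteine protease gene, was at 785, 1050.1 and 1175 against 644, 613, 654 and 592. CTSV and CTSH, related proteases, were lower by 0.89 and 0.75 on the log2 scale. Matrix protease genes were called higher 6 times and lower 5 times of 15. ADAM12, a sheddase gene, was at 11.8, 28.8 and 34.3 against 6.09, 5.22, 7.38 and 6.87, and the membrane metalloprotease genes MMP14 and MMP15 were lower, with changes of -0.55 and -0.95.

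Immediate early genes, which cells switch on within minutes of a stimulus, were called lower 13 times and higher 3 times of 23, with a median change of -0.87. FOS (ENSG00000170345.9, chromosome 14, 75278826 to 75282230, plus strand of GRCh38), a subunit of the transcription factor AP-1, was at 6.59, 11.7 and 19.6 against 197, 124, 678 and 399, a change of -4.50 ± 0.40 (SE; adjusted p = 4.9e-06). FOSB, its paralog, was at 0.167, 0.397 and 0.85 against 4.2, 3.54, 33 and 19.7, and EGR1, a zinc finger factor gene, at 0.983, 1.62 and 2.85 against 6.9, 4.39, 49.6 and 30.2. NR4A1, an orphan nuclear receptor gene, was at 69.6, 74.4 and 109 against 238, 198, 537 and 361. Subcutaneous replicates 3 and 4 were the 2 highest libraries for FOS, FOSB, EGR1 and NR4A1, and the metastases lay below all 4 replicates. Leaving out any 1 subcutaneous replicate left 13 genes called lower. With voom, a weighted test on reads, FOSB and EGR1 were no longer called and 9 genes of the list were lower. KLF4, which acts in epithelial differentiation, and MYC, a growth regulator, were called higher, at 12.1, 16.2 and 18.1 against 6.29, 5.61, 10.7 and 5.74 and at 62.2, 68.1 and 72.8 against 44.1, 38.5, 55 and 40.3. The time between killing and freezing is not given in the labels and its part in these values was not tested. A stretch of the FOS promoter, chr14:75278499-75278538 on hg38, plus strand, is printed with its CArG box in capitals.

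FOS promoter: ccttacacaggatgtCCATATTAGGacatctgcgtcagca

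In the window from 350 bases before to 50 after the start, FOS, FOSB and EGR1 were the 3 of 23 immediate early genes with a CArG box. All 3 were among the largest falls.

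Genes of the cell cycle rose: 22 of 24 DNA replication and G1/S genes and 22 of 22 mitosis genes were called higher, none lower, with median changes of 0.59 and 0.62. CCNE2, a cyclin of S phase entry, was at 27.6, 30.5 and 40.2 against 15.3, 17.4, 12.8 and 11.5. MCM10, which acts in origin firing, was at 36.7, 44.9 and 52.2 against 23.8, 21.9, 24.4 and 22.4, and CCNA2, the cyclin of S and G2 phase, at 25.9, 29.5 and 31.3 against 16.9, 15.1, 13.2 and 13.5. TOP2A, the topoisomerase that untangles chromosomes, was at 1562, 1739.9 and 1832 against 1001, 931, 934 and 898. Groups did not overlap in any of these 4. The letters TTTGAA, the core of the CHR element of late cell cycle promoters, stood in 16 of 22 mitosis promoters, in 2 of 24 replication promoters and in 12.95% of all promoters. Nucleotide and polyamine synthesis genes were called higher in 16 of 21 and lower in 0 (median 0.29). PRPS2, which makes the ribose donor of nucleotides, was at 52.2, 55 and 61.5 against 34.9, 30.9, 31 and 31.5, and ODC1, the first enzyme of polyamine synthesis, at 306, 341 and 419.9 against 229.7, 225, 210.4 and 199.7. Of p53 targets and CDK inhibitors, 7 were higher and 3 lower of 18; the death receptor gene FAS was at 56.6, 65.7 and 82.4 against 29.8, 44.6, 28.1 and 25.3 and the CDK inhibitor gene CDKN2C at 25.8, 27.4 and 29.3 against 16, 14.9, 14.8 and 17, both higher, while the death receptor gene TNFRSF10B was lower (-0.37).

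Serine, glycine and one-carbon genes were called higher in 9 of 15 and lower in 2, with a median change of 0.48. PHGDH, the first enzyme of serine synthesis, was at 13.8, 26.1 and 28.1 against 5.55, 5.04, 3.5 and 4.43, a change of 2.07 ± 0.14 (SE; adjusted p = 5.97e-08). PSPH, the last step of that path, was at 38.2, 43.1 and 52 against 26.8, 21.3, 25.9 and 27, and MTHFD2, a mitochondrial folate enzyme gene, at 188, 209 and 228 against 118, 97.8, 93.5 and 83. The synthesis steps and the folate step were higher in each metastasis. AMT, a subunit of the complex that breaks down glycine, was lower, at 3.71, 5.29 and 8.5 against 11, 13.6, 12.3 and 16.6.

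Aminoacyl-tRNA synthetase genes, which load tRNAs with amino acids, were called higher in 26 of 37 and lower in 2 (median 0.32). TARS was at 422, 441 and 461 against 292, 249.5, 261 and 245 and GARS at 220.2, 236 and 266 against 163, 147, 139 and 129, both separated between groups, with changes of 0.75 ± 0.05 (SE; adjusted p = 7.21e-08) and 0.73 ± 0.06 (SE; adjusted p = 3.56e-07). HARS2, a mitochondrial enzyme gene, was lower (-0.31). Amino acid transporters were higher in 10 and lower in 5 of 21. SLC7A5, the large neutral amino acid carrier, was at 46.6, 53.8 and 61.3 against 27.5, 23.9, 24.2 and 23.7, and SLC6A15, a carrier of branched-chain amino acids and proline, at 4.44, 9.55 and 11.4 against 2.04, 2.17, 1.79 and 1.45. SLC7A1, the arginine and lysine carrier, rose by 0.74. SLC7A11, which exchanges cystine for glutamate, was at 32.3, 46.4 and 57.7 against 100.3, 82.2, 72 and 78.4, and SLC1A1, a glutamate carrier, at 1.14, 2.09 and 3.09 against 6.33, 5.89, 7.51 and 6.15. SLC7A5, SLC6A15 and SLC7A1 were thus higher and both glutamate-linked carriers lower. This holds for the carriers named here and is no rule by substrate, since a gene of a carrier of the neutral amino acid glycine was called lower.

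Genes of glutamate and GABA metabolism were called higher in 8 and lower in 5 of 17, and in 5 and 4 after quantile normalization. GOT2, a mitochondrial aspartate aminotransferase gene, was at 229, 239 and 246 against 194, 164, 170.1 and 179. GPT2, which makes alanine from pyruvate with glutamate as donor, was at 10.03, 10.6 and 11.1 against 7.79, 7.18, 8.44 and 7.72. Both aminotransferases were higher in each metastasis. GABBR1, a subunit of the GABA-B receptor, was lower, at 2.1, 3.46 and 5.32 against 5.66, 9.2, 9.42 and 8.79.

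ATF4, the transcription factor gene of amino acid shortage, was at 118, 145 and 154 against 97.1, 98.2, 113 and 104. Its targets were called higher in 8 (42.11%) and lower in 3 (15.79%) of 19. These shares are near those of protein-coding genes averaging 5 or more in the higher group, 40.65% and 18.16%. ASNS (ENSG00000070669.16, chromosome 7, 97851677 to 97872542, minus strand of GRCh38), which makes asparagine, was at 35.6, 44.3 and 50.7 against 25.6, 20.6, 19.9 and 17.7, a change of 1.01 ± 0.09 (SE; adjusted p = 5.84e-07). PCK2, a mitochondrial phosphoenolpyruvate carboxykinase gene, was at 21.5, 29.7 and 35.4 against 17.1, 15.1, 14.1 and 15.7. ATF3 and PPP1R15A, stress response members of the list, were lower with changes of -1.80 and -0.84, and the ATF3 call was lost with voom. The ASNS promoter holds the letters TGATGNAA of the element that pairs C/EBP and ATF half-sites, printed in capitals in chr7:97872454-97872491 on hg38, minus strand.

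ASNS promoter: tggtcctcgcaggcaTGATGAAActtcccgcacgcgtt

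TGATGNAA was found in 7 of 19 ATF4 target promoters, 10 of 37 synthetase promoters, 0 of 15 serine and one-carbon promoters and 2.172% of all promoters. All 10 synthetase genes with it, GARS, CARS and TARS among them, were called higher. Of the 7 ATF4 targets with it, ASNS, PCK2 and CHAC1 were called higher, ATF3 lower, and SESN2, DDIT3 and NUPR1 were not called.

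Heat shock protein genes of the cytosol and mitochondrion were called higher in 9 of 17 and lower in 2 (median 0.34). HSP90AA1, a chaperone gene, was at 6752, 7865 and 10949.6 against 4694, 3824, 5756 and 4547, and HSPD1, the mitochondrial chaperonin gene, at 895, 951 and 1009 against 567.9, 464, 595 and 499.7. Endoplasmic reticulum chaperone and unfolded protein response genes leaned down, 8 lower and 4 higher of 23, and without subcutaneous replicate 3 there were 5 lower and 4 higher. HSP90B1, the chaperone of that compartment, was at 1261, 1396 and 1615 against 1925, 1755, 1916 and 1764. The cytosolic paralog was higher and the endoplasmic reticulum paralog lower in each metastasis.

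Hypoxia-induced genes were called lower 16 times and higher 4 times of 26, with a median change of -0.57. PFKFB4, a regulator of glycolytic flux, was at 8.05, 9.85 and 11.6 against 36.6, 26.9, 31.4 and 36.2, a change of -1.62 ± 0.11 (SE; adjusted p = 5.05e-08). PDK1, which keeps pyruvate out of the mitochondrion, was at 13.6, 18.8 and 20.5 against 52.8, 51, 44.1 and 43.8, and NDRG1, a stress response gene, at 354, 422 and 515 against 793, 899, 716 and 688. SLC2A1, the glucose transporter GLUT1, was an exception, at 161, 216 and 296 against 93.4, 83.5, 88 and 82.3, and was higher in every metastasis. Among glucose transport and glycolysis genes 13 were lower and 4 higher of 24; without subcutaneous replicate 1, 8 were lower and 4 higher. ALDOC, an aldolase, was at 7.51, 9.85 and 12.3 against 36.7, 30.4, 31.6 and 33.7, with 3.02% of its metastasis reads expected from mouse RNA, and the abundant ALDOA and PGK1 fell by less (-0.26 and -0.25). The letters ACGTG of the hypoxia response element are common and stood in 17 of 26 hypoxia-induced and 33.56% of all promoters.

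Mitochondrially encoded genes were lower in 11 of 13 and higher in 0 (median -0.55); after quantile normalization 7 were lower and 3 higher. MT-ND1, a complex I subunit gene, was at 3862, 4537 and 5529.6 against 8502, 11739, 8999.9 and 10325, and MT-CYB, of complex III, at 3489, 4448 and 5272 against 6692, 9049, 7761 and 8161. Because levels are shares of a fixed sum, lower levels of these abundant transcripts leave a larger share to all other genes. Nuclear oxidative phosphorylation genes were called higher 8 times and lower 5 times of 30, and under median-of-ratios scaling 3 and 9 times, so no direction is given for them.

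Cholesterol synthesis and uptake genes were called lower in 14 of 24 and higher in 1 (median -0.28). MVD, an enzyme of the mevalonate path, was at 18.1, 22.3 and 28.8 against 57.1, 48, 73.7 and 65.9, a change of -1.36 ± 0.10 (SE; adjusted p = 1.42e-07). DHCR7, a last-step reductase, was at 23.6, 32.2 and 37.1 against 72, 58.5, 70.2 and 72.5, and INSIG1, the sterol-sensing brake of the SREBP factors, at 8.44, 12 and 14.4 against 26.2, 20.4, 33.1 and 24.5. All were lower in each metastasis. Fatty acid synthesis and desaturation genes were also called lower more often, 11 lower and 3 higher of 21. SCD, which makes monounsaturated fatty acids, was at 46.5, 58.4 and 75.9 against 175, 139, 198 and 169, a change of -1.54 ± 0.09 (SE; adjusted p = 1.86e-08). FADS1 and FADS2, desaturases of polyunsaturated fatty acids, were at 146, 175 and 237 against 354, 312, 362 and 370.1 and at 303, 326 and 379 against 596, 547, 691 and 681. ACSL4, which activates arachidonic acid for membrane lipids, was at 145, 158 and 175 against 42.4, 39.9, 43.5 and 35.8, higher in every metastasis. Desaturases were thus lower and 1 acyl-CoA ligase higher. Of lipid uptake and efflux genes (4 higher, 7 lower of 15), APOE, the main lipid carrier of brain, was at 2.08, 3.4 and 15.8 against 21.4, 16.2, 17.3 and 21.3 in these human values, with 1 metastasis close to the subcutaneous range. LRP1, a receptor for APOE, was lower (-1.02), and FABP5, an intracellular fatty acid carrier gene, was higher, at 15.2, 16.5 and 19.6 against 11.4, 10.6, 10.6 and 12.9.

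MHC class I presentation genes were called lower in 8 of 17 and higher in 1 (median -0.37). HLA-B was at 2.81, 4.01 and 7.16 against 15.7, 20.4, 18.1 and 17.7 and HLA-C at 0.861, 1.22 and 2.05 against 5.22, 6.06, 5.02 and 4.08. HLA genes share sequence with each other and with mouse class I genes, so their counts are uncertain, though both fell, with changes of -1.87 and -1.42. Interferon-stimulated genes were called lower in 14 and higher in 3 of 23 (median -0.52). IFI6 (ENSG00000126709.14, chromosome 1, 27666064 to 27672212, minus strand of GRCh38), an interferon-induced mitochondrial protein gene, was at 5.59, 6.05 and 10.2 against 46.2, 60.2, 60.8 and 47.7, a change of -2.79 ± 0.12 (SE; adjusted p = 5.53e-10). ISG15, a ubiquitin-like modifier gene, was at 3.98, 6.51 and 7.8 against 18.8, 20.2, 18.8 and 19.4, and IRF9, the DNA-binding subunit of the interferon response complex, at 4.69, 7.12 and 8.6 against 11.4, 19.6, 18.2 and 18.5. IFI44L was an exception, at 17.2, 19.3 and 34 against 10.7, 12.2, 9.5 and 9.51. A stretch of the IFI6 promoter, chr1:27672262-27672363 on hg38, minus strand, shows 3 copies of the core letters GAAANNGAA of the interferon-stimulated response element in capitals.

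IFI6 promoter: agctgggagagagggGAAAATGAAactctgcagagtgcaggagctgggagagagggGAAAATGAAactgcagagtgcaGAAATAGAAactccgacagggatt

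GAAANNGAA stood in 14 of 23 interferon-stimulated promoters, 9 of 17 class I presentation promoters and 8.678% of all promoters. Of the 14 interferon-stimulated genes with it, 6 were called lower, IFI6 and ISG15 among them, 3 higher (IFI44L, GBP1 and IFIT5) and 5 were not called.

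Cytokine, chemokine and NF-kB target genes were called 5 times in either direction of 18. CCL2, a monocyte attractant gene, was at 26.4, 48.6 and 89 against 115, 468, 119.8 and 96.3; subcutaneous replicate 2 was far above the other 3, and the call was lost when only the 3 hindbrain metastases were compared (adjusted p = 0.102). NFKB2, a subunit gene of NF-kB, was lower, at 51.7, 64.8 and 68 against 88.9, 159, 84.5 and 86.4, and the apoptosis inhibitor gene BIRC3 was lower by 0.75 on the log2 scale. IL6 was lower, at 6.21, 8.58 and 11.1 against 14.5, 14.3, 15.2 and 12.5, and IL18 higher, at 49.5, 56.7 and 61.9 against 38.9, 42.4, 34.7 and 34.4. Median-of-ratios scaling left 5 of this list higher and 8 lower. Immune checkpoint ligand and complement regulator genes were called higher in 3 and lower in 4 of 16, and in 2 and 7 under that scaling. CD59, which blocks the complement pore, was at 43.3, 57.6 and 62.5 against 85.8, 81.7, 84.9 and 78.1, and PVRL2 (NECTIN2), a ligand of lymphocyte receptors, at 70.7, 74.6 and 86.2 against 116, 116, 115 and 118. Both were lower in every metastasis.

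Secreted defence genes were mostly lower, 5 against 3 higher of 9. SLPI and PI3, paired inhibitors of neutrophil elastase, were at 34.7, 51.4 and 86.8 against 247, 366, 257 and 234 and at 1.34, 2.49 and 4.96 against 17.2, 30.9, 9 and 14.5. S100A8, a calgranulin gene, was at 3.16, 7.53 and 12.6 against 31.3, 48.7, 35.8 and 47.7, and the adhesion molecule gene CEACAM1 at 1.09, 3.77 and 6.13 against 19.4, 17.5, 17.5 and 17.6. MUC16, a membrane mucin gene, was at 4.31, 8.87 and 15 against 49, 57.6, 44.7 and 49.7, a change of -2.46 ± 0.25 (SE; adjusted p = 3.23e-06). All of these were below the whole subcutaneous range in each metastasis. HP, the gene of the haemoglobin scavenger haptoglobin, went the other way, at 70.5, 140.2 and 238 against 25, 28, 22.4 and 42.3.

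Neuronal and synaptic genes need the mouse-read check most, since the human reads sit in brain tissue. Of 21 tested, 11 were called higher and 3 lower, but for 6 of the 21 mouse RNA accounts for at least 10% of the metastasis reads. GAP43 and SNAP25 were among these, with 99.6% and 65.1% expected from mouse RNA. With such genes left out, 5 were called higher and 3 lower. Among those 5 were CHL1 and L1CAM, a neural adhesion gene at 60.5, 68.7 and 82.5 against 36, 34, 41.6 and 37.1 with 0% expected from mouse RNA. Of the markers of other brain cells, no microglia or macrophage marker reached the level needed for a test. The summed human level of the 10 neuron markers was 9.02 to 17.3 in the metastases and 9.91 to 13.5 in the subcutaneous tumours, and that of the 7 astrocyte markers 24.02 to 46.7 and 30.6 to 37.2. For the 12 fibroblast, muscle and fat markers the sums were 131 to 199 and 227 to 259, and without COL1A1, itself one of the collagens above, they were 51.7 to 77.3 and 46.5 to 66.9, which overlap. For the 8 oligodendrocyte markers they were 421 to 476 and 322 to 344, carried by MBP and CNP. Of the 5 oligodendrocyte markers tested, 3 were called higher, and for 2 of the 5 mouse RNA accounts for at least 10% of the metastasis reads. Mouse reads were not taken out of these sums. The part of stray mouse RNA in genes under the 10% limit was not tested singly.

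Axon guidance genes were called higher 9 and lower 8 times of 29, and quantile normalization gave 7 and 10. NTN1, the gene of the guidance cue netrin-1, was at 42.4, 44.1 and 49.9 against 15.7, 17.9, 16.5 and 15, and UNC5B, a netrin receptor gene, at 1.24, 1.8 and 2.14 against 5.44, 5.46, 7.04 and 5.9. The ligand was higher and this receptor lower. EFNA1, the gene of an ephrin ligand, was at 92.3, 109.99 and 166 against 260.1, 321, 251 and 197. Among growth factor receptors and EGF-family ligands (7 higher, 5 lower of 23), TGFA, a ligand of the EGF receptor, was at 9.69, 13.9 and 42.3 against 5.47, 4.54, 4.77 and 3.9. EGFR was at 55.6, 62.3 and 66.8 against 80.7, 76.6, 74.7 and 67.7 and MET, the receptor of hepatocyte growth factor, at 207, 224 and 255 against 162, 146, 152 and 128. The ligand gene and MET were higher while EGFR was lower. FGFR2 and FGFR4 moved in opposite directions, at 4.17, 6.19 and 8.07 against 1.74, 1.78, 1.93 and 1.76 and at 1.08, 2.23 and 5.87 against 7.25, 6.6, 6.89 and 7.05.

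The list of aryl hydrocarbon receptor targets and aldehyde dehydrogenases was called higher in 9 and lower in 4 of 19. ALDH3A1, which clears reactive aldehydes, was at 55.4, 75.8 and 92.1 against 11.7, 11.1, 21.6 and 17.6, and ALDH2 at 5.51, 8.27 and 10.9 against 1.19, 1.53, 1.48 and 1.48. Both were higher in each metastasis. Zinc and other metal genes were higher in 7 of 11 and lower in 2; the metallothionein gene MT2A was at 300.2, 357 and 485 against 172, 195, 149 and 164, the zinc importer gene SLC39A10 at 187, 204 and 279 against 90.6, 79.4, 97 and 76.8 and the zinc exporter gene SLC30A1 at 5.25, 6.62 and 10.6 against 2.33, 2.9, 1.82 and 1.84. Importer and exporter were thus both higher. NRF2 targets gave 9 higher and 5 lower of 24, and 4 higher and 8 lower under median-of-ratios scaling. HMOX1, the haem-degrading enzyme, was at 38.1, 48.9 and 52.6 against 188, 169, 127 and 144, a change of -1.71 ± 0.09 (SE; adjusted p = 7.26e-09), while GCLC, which limits glutathione synthesis, was at 85.3, 103 and 116 against 55.6, 54, 50.9 and 48.8, so members of the list moved in opposite directions.

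Circadian clock genes were called lower in 10 and higher in 5 of 17. ARNTL (BMAL1) and CLOCK, the activators of the clock, were at 18.9, 20.05 and 23.1 against 11, 13.8, 12.3 and 10.9 and at 92.7, 102 and 109 against 82.2, 79.2, 75.4 and 67.8, while the repressor genes PER1 and CRY2 were at 89.4, 141 and 169.7 against 187, 214, 309 and 261 and at 10.7, 16.4 and 17.1 against 21.1, 20.3, 23.8 and 22. Activators were higher and both repressors lower in every metastasis. The hour of dissection is not given in the labels, and its part was not tested. Nuclear long non-coding RNAs were lower in 8 of 12 and higher in 1. MALAT1, an abundant nuclear speckle RNA, was at 757, 1569 and 1842 against 3045, 4064, 2782 and 3752; hindbrain metastasis replicate 1 was well below the other 5 metastases. OIP5-AS1 was the 1 member called higher, at 308, 370.5 and 392.1 against 263, 243, 266 and 222.

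**Figure D3:**
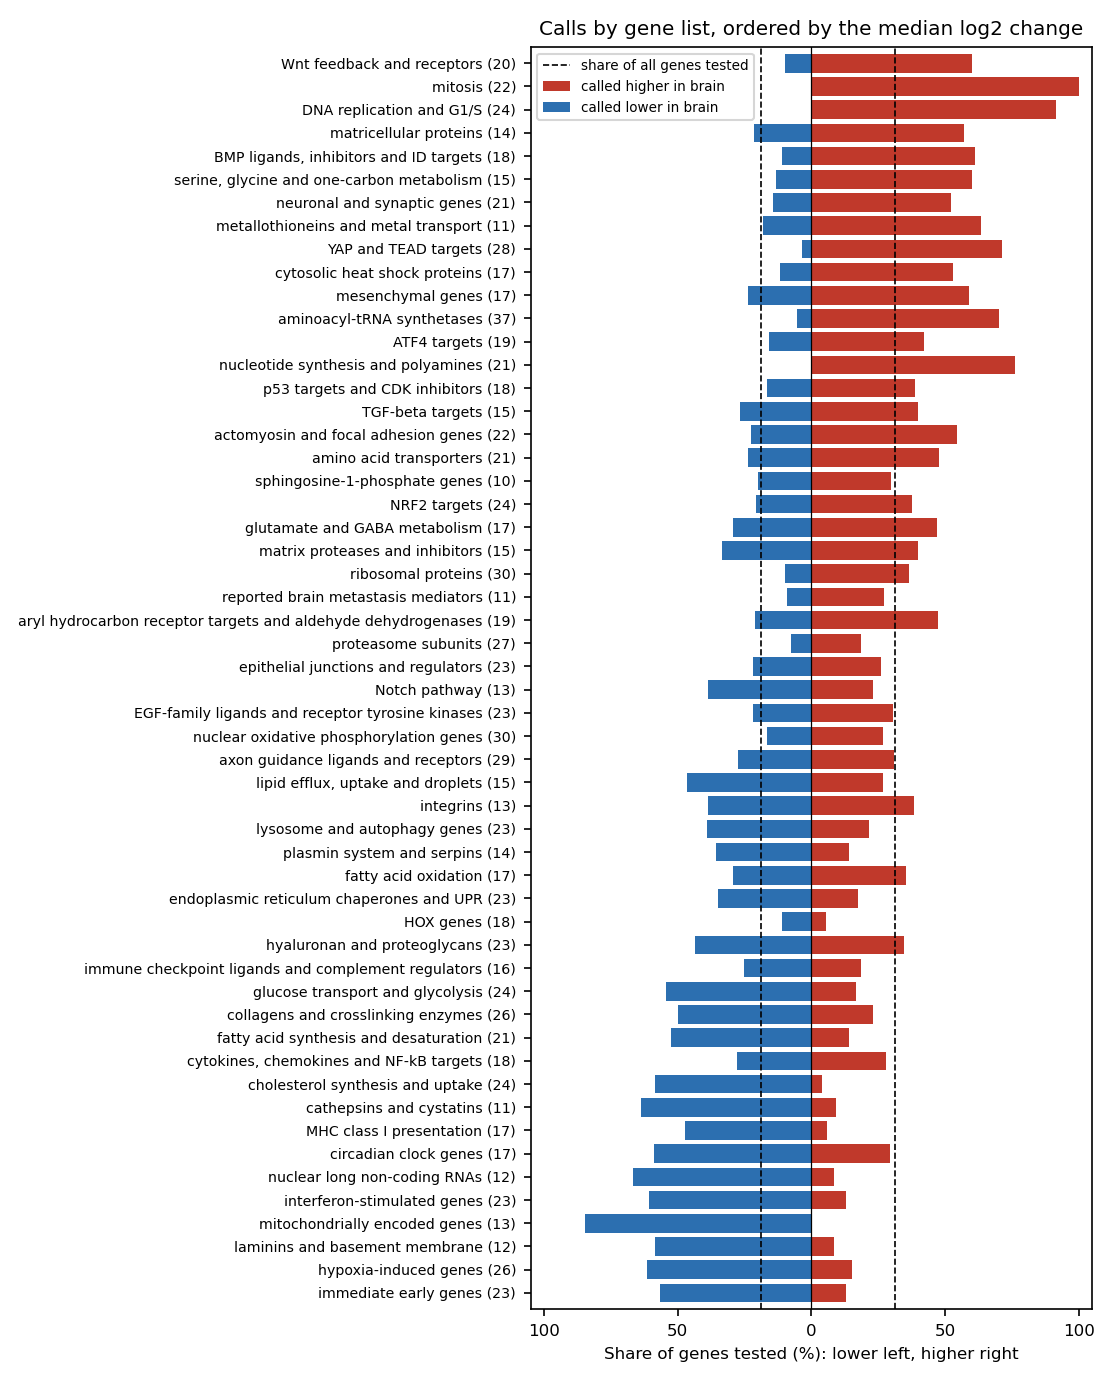
Share of the genes tested in each list that were called higher (red, to the right) or lower (blue, to the left) in brain metastases, for the pathway lists with at least 10 genes tested, ordered by median log2 change, with the number tested in brackets. Dashed lines mark the shares of all genes tested, 31.2% higher and 18.8% lower. For protein-coding genes averaging 5 or more in the higher group the shares were 40.65% and 18.16%. Mitosis genes are higher in 22 of 22, and mitochondrially encoded genes are lower in 11 of 13.

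The remaining lists are given by their counts. Ribosomal protein genes were called higher 11 and lower 3 times of 30, but 4 and 5 times under median-of-ratios scaling. Proteasome subunit genes gave 5 and 2 of 27, and 3 and 5 under that scaling. Fatty acid oxidation genes gave 6 and 5 of 17, and 4 and 9 under that scaling. Lysosome and autophagy genes were lower in 9 and higher in 5 of 23; GABARAPL1, an autophagosome gene, was at 117, 137 and 162 against 247, 217, 289 and 235 and its relative MAP1LC3B at 308, 397 and 413 against 278, 268, 266 and 239.7, in opposite directions. HOX genes were called in 1 case higher and 2 lower of 18. Sphingosine-1-phosphate genes were called higher in 3 and lower in 2 of 10; the phosphatase gene SGPP1, which removes the lipid's phosphate, was at 13.5, 15.8 and 17 against 13.1, 12.5, 11.2 and 10.2. Of genes reported elsewhere to mediate brain metastasis, 3 were higher and 1 lower of 11; L1CAM rose, while ANGPTL4, an inhibitor of lipoprotein lipase, was lower, at 83.6, 99.5 and 133 against 223, 193, 253 and 244.

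The metastases differed among themselves by brain region. In the same fit 481 of 14557 genes differed between forebrain and hindbrain metastases (3.3%), and in a fit of only the 6 metastasis libraries, chosen after seeing the data, 30 did (0.206%). The 9 genes that follow passed in both fits. POSTN had a mean of 19.4 in the forebrain and 3.44 in the hindbrain, AXIN2 57 and 25, and MYO10 65.3 and 33.1. LTBP1 had means of 222 and 137 and MYH9 of 1501 and 1124. These 5 genes were higher in the forebrain, where their distance from the subcutaneous tumours was greater. HP had means of 79 in the forebrain and 212 in the hindbrain, S100A8 of 3.65 and 11.8, SLPI of 37.5 and 76.9, and CDH11 of 384 and 627. These 4 were higher in the hindbrain, and for S100A8, SLPI and CDH11, which were lower in brain, the forebrain lay farther from the subcutaneous tumours.

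**Figure D4:**
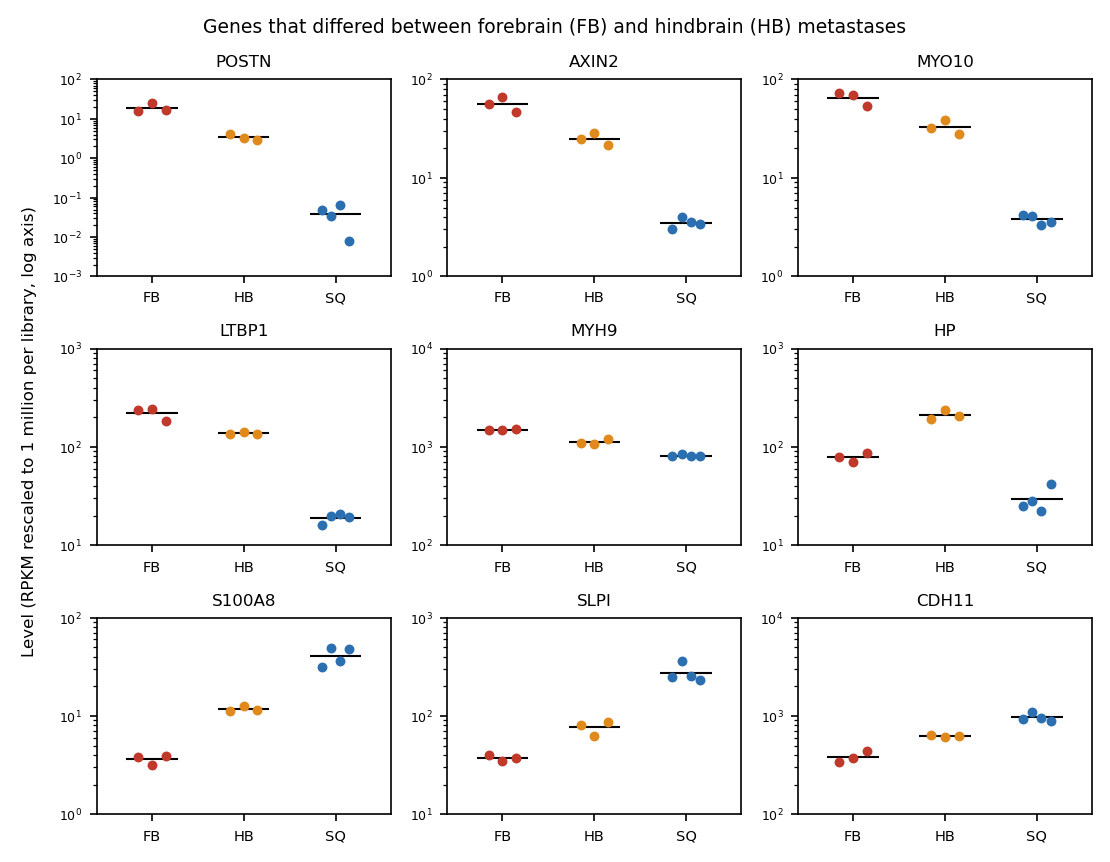
Levels (RPKM rescaled to 1000000 per library, log axis whose range differs by panel) of the 9 named genes that differed between forebrain (red, n = 3) and hindbrain (orange, n = 3) metastases in both fits, with subcutaneous tumours (blue, n = 4) beside them and black bars at group means. POSTN, AXIN2, MYO10, LTBP1 and MYH9 are higher in the forebrain and the other 4 in the hindbrain.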

How the data were processed

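Human genes were measured by RNA sequencing of tissue, and the authors deposited RPKM values per gene and library. Per the submitters' processing notes, the builds were hg38 (GRCh38) and mm10 (GRCm38); which aligner, counter and gene length were used is not given in the sources used here. How reads were assigned to human or mouse was not checked beyond the tumour-free brain, whose human values gave the mouse reads expected per gene in a metastasis. Deposited RPKM values were rescaled to a sum of 1000000 over the human genes of each library, and genes with a level of at least 1 in at least 3 of 13 libraries (6 metastases, 4 subcutaneous tumours, 3 monolayer cultures) were kept, 14557 of 34058. Then log2(level + 1) was fitted in limma 3.58.1 (R 4.3.3) with 1 mean per group, a trend and robust spread; the contrast was the average of forebrain and hindbrain metastases minus subcutaneous tumours, and p-values were adjusted over all genes tested by Benjamini-Hochberg. The script was run on simulated reads with 1 spread setting for all genes and groups and no pairs of libraries. That run checks the code and does not test the calls made here. Reads were estimated from the RPKM values by choosing, for each gene, a step that made its reads whole within 0.02 of a read. Because the step was chosen to meet that tolerance, whole reads are no check of the estimate. Of 33975 genes recovered, 17893 had values in 10 or more libraries, and the step is less certain for the rest. The recovered reads gave depth and an alternative with voom. Libraries of 1 group differed by more than counting noise and none was merged.

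The genes named are the 15 called genes with the largest change in each direction and up to 4 per list and direction, each averaging 5 or more in its higher group, with no overlap between groups and under 10% of metastasis reads expected from mouse RNA, plus KRT8, KRT18, EPCAM, NKX2-1, SFTPC and NAPSA; genes named with a motif are those of the list that hold it. SNAP25 and GAP43 were named for their mouse reads after their values were seen. The lists and the comparison were chosen with earlier results of these data known, so counts describe the lists and no set test was made. Alternatives covered the pseudocount, the filter on low values, scaling, libraries in the fit, the replicate block, spread, library weights, mouse reads, voom and leaving out each library. Results on some genes are not reported here. Promoters were read from the hg38 genome at GENCODE 44 starts. Python 3.11.15, NumPy 2.4.6, pandas 2.3.3 and Matplotlib 3.10.9 were used.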

Additional observations from a re-analysis of the deposited data

Results flagged for a closer look

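Of the 193 named genes, 23 differed between forebrain and hindbrain metastases at an adjusted p under 0.05 in limma, with the metastases compared in the fit of all 13 libraries; the share over all genes was 3.3%. In a fit of the 6 metastasis libraries, added after seeing the data, 9 of the 23 were still called. Differences are forebrain minus hindbrain on the log2 scale. Called in both fits and higher in the forebrain were POSTN (2.18, adjusted p = 2.19e-05), AXIN2 (1.15, adjusted p = 0.000537) and MYO10 (0.96, adjusted p = 0.00391). The same held for LTBP1 (0.68, adjusted p = 0.00391) and MYH9 (0.42, adjusted p = 0.000649). Called in both fits and higher in the hindbrain were S100A8 (-1.46, adjusted p = 0.000271), HP (-1.41, adjusted p = 0.000825) and SLPI (-1.004, adjusted p = 0.00301). So was CDH11 (-0.71, adjusted p = 0.000825). In the larger fit alone, forebrain levels were higher for SH3GL3 (1.22, adjusted p = 0.00391), NKD1 (1.10, adjusted p = 0.0197) and GDF6 (0.95, adjusted p = 0.00851). They were also higher for NOTUM (0.70, adjusted p = 0.0126), SLC2A1 (0.58, adjusted p = 0.00523) and THBS3 (0.57, adjusted p = 0.0216). Smaller differences of that direction were those of BMP4 (0.48, adjusted p = 0.0444), GCLC (0.31, adjusted p = 0.0199) and TPM1 (0.30, adjusted p = 0.0458). Also in that fit alone, hindbrain levels were higher for CEACAM1 (-1.35, adjusted p = 0.000271), SFRP4 (-0.93, adjusted p = 0.0427) and PLAUR (-0.57, adjusted p = 0.0148). Further genes higher in the hindbrain were FADS1 (-0.38, adjusted p = 0.0334) and CD59 (-0.33, adjusted p = 0.0313). 

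A library stood far from the rest of its group in 21 of the 386 groups examined (each named gene in the 6 metastases and in the 4 subcutaneous tumours), and chance flags about 1 in 20. Each value is a level, followed by the range of the other libraries of that group. Subcutaneous replicate 1 stood apart for ALDH2 at 1.19 (1.48 to 1.53), CEACAM1 at 19.4 (17.5 to 17.6), COL4A6 at 6.9 (5.83 to 5.93) and GABBR1 at 5.66 (8.79 to 9.42). The same library stood apart for IRF9 at 11.4 (18.2 to 19.6), PRPS2 at 34.9 (30.9 to 31.5) and SLC7A5 at 27.5 (23.7 to 24.2). Hindbrain metastasis replicate 1 stood apart for ITGB5 at 369 (301 to 317), MALAT1 at 757 (1383 to 1842), NR4A1 at 109 (69.6 to 79.3) and PDK1 at 13.6 (17.9 to 20.5). Subcutaneous replicate 2 stood apart for CCL2 at 468 (96.3 to 119.8), DHCR7 at 58.5 (70.2 to 72.5) and NFKB2 at 159 (84.5 to 88.9). Subcutaneous replicate 3 stood apart for CHL1 at 6.93 (4.86 to 4.88), KLF4 at 10.7 (5.61 to 6.29) and TNFRSF10B at 114 (97.7 to 99.5). Subcutaneous replicate 4 stood apart for CTGF (CCN2) at 59.5 (94.2 to 98.3). Forebrain metastasis replicate 2 stood apart for IFI44L at 34 (17.2 to 19.9). Forebrain metastasis replicate 3 stood apart for LTBP3 at 2.67 (4.29 to 4.91). Hindbrain metastasis replicate 3 stood apart for TGFBR2 at 19.8 (24.8 to 27.8). The naming rule admitted these genes only without overlap between groups, so none of these libraries could bring a metastasis and a subcutaneous tumour into overlap.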

How the results depend on the processing

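The counts of genes called, higher and lower stayed within 1.5 times the main counts under every alternative run. The number called with at least 2-fold change was 665, and it was 1182 with a pseudocount of 0.1 and 1216 with voom on recovered reads; a smaller pseudocount and a scale of reads both widen the changes of low genes by construction. Voom called 7438 genes in all. Leaving out 1 library at a time gave 6207 (without subcutaneous replicate 4) to 7554 genes called, 3998 to 4618 higher, 2209 to 2936 lower and 624 to 719 past 2-fold. With the replicate number as a replicate block, 6049 genes were called, 3869 higher and 2180 lower. That block also ties subcutaneous and monolayer libraries to metastases of the same number, so it does not model pairs of metastases alone. With forebrain and hindbrain metastases averaged by number, 7919 genes were called. Residuals of forebrain and hindbrain metastases with the same number correlated at 0.0441, 0.0486 and 0.0662 across genes. Those with different numbers correlated at no more than 0.0107. Each metastasis correlated best with its own number, which is a hint of pairs from the data and not from the design. The main fit did not take the numbers as pairs because the labels name none. Its p-values may therefore treat paired libraries as independent.

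The naming rules took called genes without overlap, so stability of these genes is partly built in. Over the 274 genes picked by the naming rules and 27 alternatives, 7369 values kept their direction and their call. Another 28 values of 13 genes kept the direction and lost the call. Among genes printed above these were FOSB (adjusted p = 0.178), EGR1 (0.184) and ATF3 (0.0838) with voom and CCL2 (0.102) with hindbrain metastases only. No value reversed. Human depth in the metastases was several times below that of the subcutaneous tumours, so genes near a level of 1 are less precise there, and a missing call for such a gene is not evidence of equal levels.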

Other observations

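Further genes of the lists, not described above, were called with no overlap between groups. MT-ND4 and MT-ND5, mitochondrially encoded subunits of complex I, were lower, with changes of -0.83 and -0.87. ACSS2, which makes acetyl-CoA from acetate, was lower, at 148, 170.2 and 210.4 against 297, 319, 325 and 351. COL4A6, a collagen chain of basement membranes, was lower, at 1.51, 2.66 and 3.01 against 6.9, 5.93, 5.84 and 5.86. ALDH6A1, an enzyme of valine breakdown, was higher, at 27.6, 31.7 and 36.5 against 12.7, 11.5, 11.9 and 11.9, and HADH, an enzyme of fatty acid oxidation, was higher, at 30.2, 33.6 and 39.5 against 22.5, 20.5, 19.5 and 19.5. Among cell division genes, TTK, a spindle checkpoint kinase, was higher, at 80.8, 108 and 152 against 67.1, 63.8, 56 and 48.9, and so was CENPE, a kinetochore motor, at 32.7, 42 and 53 against 23.5, 22.9, 20.1 and 18.8. ARNTL2, the paralog of ARNTL, was higher, at 36.4, 46.4 and 54.2 against 22.6, 27.9, 20.4 and 17.9, and NFIL3, a clock-linked repressor, was lower by 0.54 on the log2 scale.

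The human level summed over the 10 endothelial and mural markers was 3.90 to 6.89 in the metastases and 2.66 to 3.91 in the subcutaneous tumours, and that over the 8 microglia and macrophage markers was 0.365 to 1.48 and 0.619 to 1.28.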
